A study of Mus musculus with 12 samples.

Results

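The genotype by disease interaction asks whether the spinal cord answered experimental autoimmune encephalomyelitis (EAE) differently when the dopamine receptor gene Drd2 had been deleted conditionally. It is the EAE response of the mutant mice minus the EAE response of the control mice, gene by gene. All 12 of the 12 libraries of the series enter it, 3 in each of 4 groups, and each library was labelled as a biological replicate. The groups are control basal (littermates labelled wt, without disease), cKO basal (labelled Drd2mGFAP conditional knockout, without disease), control EAE (wt, day 17 of EAE) and cKO EAE (knockout, day 17 of EAE). All mice were C57BL/6 of 2 to 3 months, and RNA came from spinal cord. No other allele or treatment is labelled, and how EAE was induced is not stated in the labels. The interaction is given from all 12 libraries, and from 10 libraries without cKO basal replicate 2 and cKO EAE replicate 3, which stand apart from the others in the ways listed with the library facts.

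The D2 receptor couples to inhibitory G proteins and lowers cyclic AMP. It is best known from neurons, and astrocytes can carry it too. EAE is an autoimmune attack on myelin, used as a model of multiple sclerosis: T cells enter the cord, interferon gamma induces antigen presentation and immunity GTPases, monocytes follow, astrocytes turn reactive, and myelin and neurons are damaged. The mGFAP of the genotype label refers to the mouse Gfap promoter, used to drive deletion in astrocytes and also active in certain neural progenitors. Whole cord holds many other cells, so the measured RNA is not that of astrocytes alone. According to the series title, the study addressed the role of astrocytic DRD2 in inflammation of the central nervous system.

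A response is written as a log2 fold change of EAE against basal, and the interaction as the cKO response minus the control response. A value of -1 means that the EAE to basal ratio in cKO mice was 2-fold below that in control mice, whichever way the gene moved. Levels are CPM, counts of a gene as a share of the library's total, scaled with TMM factors, given in the order of replicates 1, 2 and 3. No gene passed an adjusted p of 0.05 in either set of libraries, so the genes below are described by their values and unadjusted p, and none is called changed. Most were named for a small p in these same libraries. A lack of overlap between the EAE groups is therefore partly built in by that choice. It concerns levels in EAE and not responses, and its share over all genes was not counted.

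Libraries held 15128913 to 17592105 counts. The library cKO basal 2 stood apart, with 17220 genes holding a count where the rest had 24303 to 26056, and a TMM factor of 0.728 against 1.01 to 1.06. Its haemoglobin gene Hba-a1 was at 427 CPM, against 3.31 to 35.1 elsewhere. Control basal 1, which is kept in both sets, also differed from its group. It held the 24303 genes, and ribosomal protein genes made up 1.45% of its counts, against 0.856% and 0.889% in control basal 2 and 3. The slope of its log2 levels on log2 gene length was -0.065, against 0.032 in both of those. The library cKO EAE 3 held little immune RNA: Cd74 stood there at 6.57 CPM, where the EAE libraries besides it had 340 to 2736 CPM and basal libraries at most 3.09. Xist, which marks female cells, was at 316 to 754 CPM in the basal libraries and at most 0.287 in the EAE libraries. Ddx3y, a gene of the Y chromosome, was at 69.7 to 74.5 CPM in EAE and at 0 in every basal library. A genotype difference in the EAE response therefore cannot be told apart from a genotype difference between the sexes. Defining markers of astrocytes, neurons, oligodendrocytes and microglia were present in every group.

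With all 12 libraries, 18601 genes were tested and 0 were called by edgeR's quasi-likelihood test, a background of 0%, and the smallest adjusted p was 0.547. At an unadjusted p below 0.05 the response was higher in cKO mice for 739 genes (3.97%) and lower for 958 (5.15%). On the same counts DESeq2's Wald test called 91 genes and limma voom with sample weights called 2999. The count of lower genes rested on single libraries, from 433 without control EAE 1 to 1770 without cKO basal 3. The count of higher genes ran from 448 without cKO EAE 3 to 1902 without cKO basal 2.

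Without both libraries the spread between replicates was smaller: the common biological coefficient of variation was 0.163 in place of 0.399, and the median SE of a difference 0.302 in place of 0.574. Of 18956 genes tested, 0 were again called (0%), with a smallest adjusted p of 0.0911 and 352 genes below 0.1. At an unadjusted p below 0.05, 1554 genes had a higher response in cKO mice (8.2%) and 1884 a lower (9.94%). DESeq2's Wald test called 948 genes and limma voom 801 in these libraries. The count of 0 turned on single libraries too: edgeR called 582 genes without control basal 1, 512 without cKO EAE 2 and 1 without control basal 3. The unadjusted counts ran from 909 higher and 889 lower genes without cKO EAE 1 to 2449 higher genes without control basal 1, and 1046 genes were lower without cKO basal 3. Between both sets of libraries, 13075 of 18587 genes had the same sign, and 1256 genes were below 0.05 in both, which is 74.0% of the 12-library genes and 36.5% of the 10-library genes.

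Genes that were high in EAE mostly had the smaller response in cKO mice. Of 2532 genes whose mean response over both genotypes was at least 2-fold upward in 10 libraries, 2195 (86.7%) had the smaller response in cKO mice. Their median response was 2.74 on the log2 scale in control mice and 1.88 in cKO mice. With 12 libraries the share was 2038 of 2353 genes (86.6%), with medians of 2.76 and 1.67. The median difference of responses over these upward genes was -0.84 in 10 libraries and -1.06 in 12. Among genes at least 2-fold lower in EAE the side depended on the libraries. The cKO response was the smaller in 208 of 400 genes (52.0%) in 10 libraries, but in 182 of 979 (18.6%) in 12, where the median response was -0.83 in control mice and -1.78 in cKO mice. Over all genes tested the median difference was -0.05 in 12 libraries and -0.06 in 10. It was positive for 8723 of 18601 genes in 12 libraries and 8661 of 18956 in 10, and the sign counts of the lists below stand beside these. Control and cKO responses share no libraries.

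**Figure D1:**
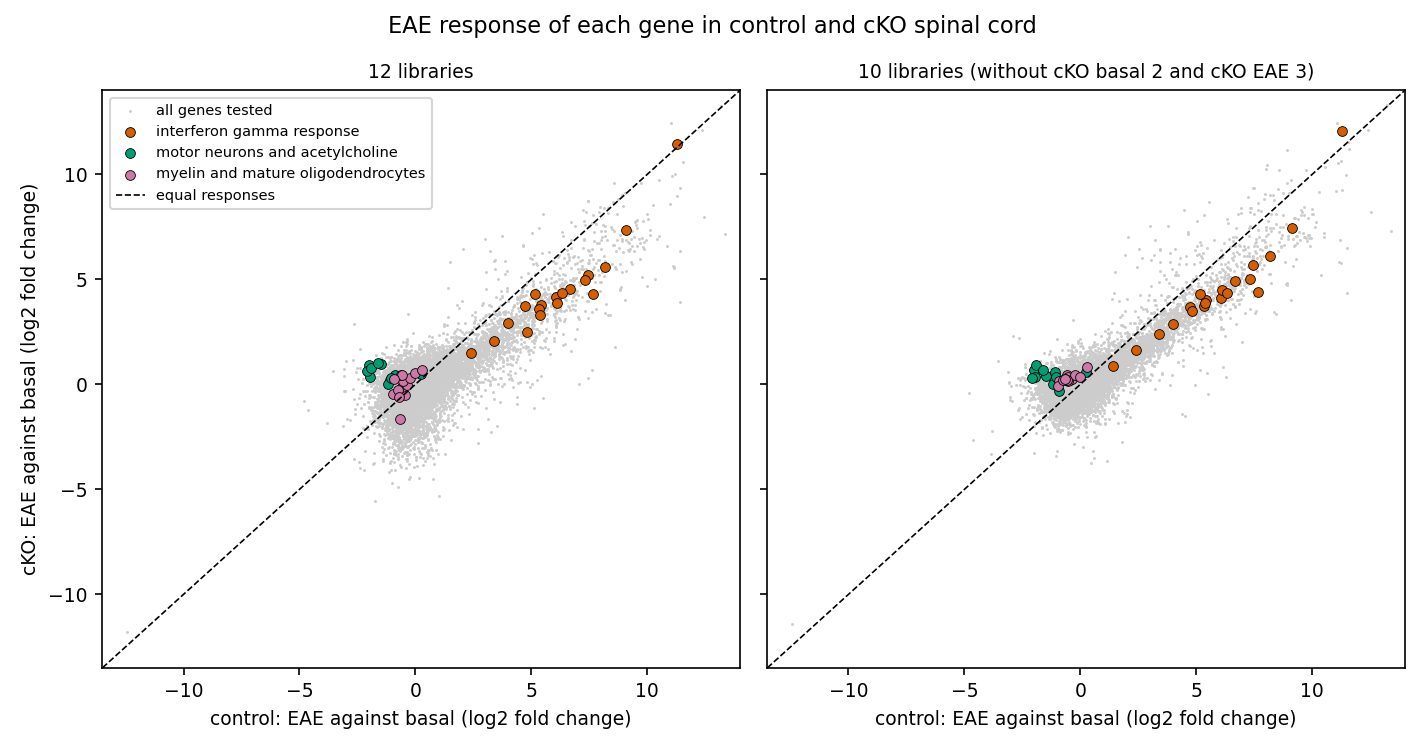
Each grey point is a gene tested, with its EAE response (log2 fold change against basal) in control mice on the x axis and in cKO mice on the y axis, from 12 libraries on the left and 10 on the right. Coloured points are members of 3 gene lists and the dashed line marks equal responses. Points of the interferon gamma list lie below the line except Cxcl9, which had 0 counts in cKO basal, and points of the motor neuron list lie above it.

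Drd2, the targeted gene (build mm10, plus strand of chromosome 9 from 49340627 to 49408177), was at 26.5, 19.4 and 19.7 CPM in the control basal libraries. In cKO basal it was at 17.6, 33.4 and 34.7 CPM. In EAE it was at 8.88, 9 and 9.62 CPM in control and 6.73, 12.5 and 19.4 in cKO mice. Control and cKO libraries overlapped in both states, so the gene count did not separate the genotypes. The labels do not state which exons were deleted, and a total over the whole gene need not show the deletion. The difference of responses was 0.10 (SE 0.52) with 12 libraries and -0.21 (SE 0.42, adjusted p = 0.827, edgeR) with 10, and the sign of the 12-library value turned with single libraries, from -0.32 without cKO EAE 3 to 0.43 without cKO EAE 1.

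Of 9 dopamine signalling genes tested, Drd2 included, 5 had a positive and 4 a negative difference in 10 libraries, and 7 and 2 in 12, with medians of 0.07 and 0.11. In 10 libraries 2, Ppp1r1b and Ddc, were higher in cKO mice at an unadjusted p below 0.05 and 0 lower. Ppp1r1b encodes DARPP-32, a phosphatase inhibitor downstream of dopamine receptors. Its levels were 60.0, 65.6 and 57.9 CPM in basal control libraries and 54.0, 30.7 and 38.0 in basal cKO libraries. In EAE, control libraries held 31.0, 29.7 and 20.6 CPM and cKO libraries 46.8, 37.4 and 47.8. The cKO libraries lay below the control libraries in the basal state and above them in EAE, so the difference of responses drew on both states. It was 1.03 (SE 0.27, adjusted p = 0.108, edgeR) in 10 libraries and 1.28 (SE 0.34) in 12. For Ddc, which makes dopamine from its precursor, the difference was 1.05 (SE 0.31) in 10 libraries and 0.11 (SE 0.77) in 12, where the cKO basal 2 level of 63.4 CPM enters. For Th, the rate-limiting enzyme of dopamine synthesis, the values were -1.03 (SE 0.48) and 0.47 (SE 1.42), and Th had 0 counts in cKO basal 2.

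Of the immune lists, the interferon gamma response list had the largest share of genes below an unadjusted p of 0.05 in 10 libraries, and MHC class I the largest in 12. Of the 20 interferon gamma genes tested in 10 libraries, 19 had a lower response in cKO mice and 17 were at an unadjusted p below 0.05, beside 9.94% of all genes. The median difference was -1.55, from -1.72 to -1.32 over all alternatives. With 12 libraries the median was -1.92, or -1.30 without cKO EAE 3, and 3 of 19 genes were below 0.05, beside 5.15% of all genes. DESeq2's Wald test called 13 and limma voom 3 of these genes in 10 libraries, every one lower, where they called 494 of 15281 and 316 of 18956 genes lower in all. With 12 libraries DESeq2 called 0 and limma voom 1 of the list, beside 32 of 8806 and 1367 of 18601 genes called lower. DESeq2's totals are of genes that it gave an adjusted p. In whole tissue, fewer cells of a type and less RNA per cell cannot be told apart, and this holds for every list below. Summed T cell markers, 6 genes, were at 69.6 to 77.5 CPM in control EAE and 2.74 to 33.7 in cKO EAE, against 1.44 to 3.91 in the basal groups, where Cd3g had 0 counts in control basal and Cd8a in cKO basal. T cells are a main source of interferon gamma, and the part of these cells in the list's difference was not tested.

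Irgm2 and Irgm1 are immunity-related GTPases and Gbp5 a guanylate-binding protein, from families that take part in defence against intracellular microbes. Irgm2 (chromosome 11, 58199618 to 58222782) was at 3.05, 4.14 and 3.59 CPM in basal control libraries and 5.93, 0 and 5.07 in basal cKO libraries. With EAE it stood at 335, 202 and 197 CPM in control mice and 97.1, 98.4 and 6.44 in cKO mice. Every cKO EAE library lay below every control EAE library, and cKO EAE 3 lay near the basal level. The difference of responses was -1.95 (SE 0.33, adjusted p = 0.0911, edgeR) in 10 libraries and -1.92 (SE 1.43) in 12. Gbp5 (chromosome 3, 142493978 to 142522344) was at 2.67, 2.82 and 2.10, then 3.96, 0 and 2.80, then 254, 149 and 208, and 62.0, 77.9 and 5.17 CPM in the same group order. The groups were ordered as for Irgm2, with a difference of -1.98 (SE 0.36) in 10 libraries and -1.95 (SE 1.36) in 12. Irgm1 (chromosome 11, 48861968 to 48871683) was at 9.06 to 11.3 CPM in the basal libraries, 516, 316 and 399 in control EAE and 139, 163 and 12 in cKO EAE. Its difference was -1.51 (SE 0.28) in 10 libraries and -2.05 (SE 0.92) in 12.

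Promoters of these 3 genes are shown because they had the smallest p in 10 libraries among the list's genes with a RefSeq promoter. Factors activated by interferons act through short promoter motifs. Interferon gamma signalling acts through GAS elements, searched here as TTCNNNGAA, and IRF factors bind interferon response elements, searched as GAAANNGAA, each on both strands. The sequences are the 250 bases before the RefSeq start, from build GRCm38.p6, 5′ to 3′ on the gene's strand, with motif matches in capitals. All 3 windows lie inside the gene ranges given above, so these RefSeq starts differ from the outermost starts of the counted genes.
Irgm2, chr11:58214727-58214976, plus strand: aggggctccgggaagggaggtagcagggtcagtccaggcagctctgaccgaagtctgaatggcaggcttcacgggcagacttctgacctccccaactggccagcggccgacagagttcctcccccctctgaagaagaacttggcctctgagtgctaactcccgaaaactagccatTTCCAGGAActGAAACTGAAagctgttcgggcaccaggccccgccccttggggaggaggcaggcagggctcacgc
Gbp5, chr3:142496684-142496933, plus strand: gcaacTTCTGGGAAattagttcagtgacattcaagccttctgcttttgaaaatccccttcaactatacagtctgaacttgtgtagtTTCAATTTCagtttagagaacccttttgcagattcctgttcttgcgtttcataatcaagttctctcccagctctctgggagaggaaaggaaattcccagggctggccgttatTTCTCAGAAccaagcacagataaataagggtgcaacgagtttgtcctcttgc
Irgm1, chr11:48871421-48871670, minus strand: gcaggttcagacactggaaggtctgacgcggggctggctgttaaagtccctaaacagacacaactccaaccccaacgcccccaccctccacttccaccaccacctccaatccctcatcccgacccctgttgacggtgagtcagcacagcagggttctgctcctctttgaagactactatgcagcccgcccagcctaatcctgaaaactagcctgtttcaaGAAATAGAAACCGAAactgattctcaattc
Irgm2 holds 1 match of each motif, Gbp5 2 GAS-like matches and 1 response element match, and Irgm1 2 overlapping response element matches. Of the 20 list genes, 15 had a RefSeq promoter (300 bases, of which 50 lie after the start). The response element letters were in 12 of them, against 9.76% of all 27025 genes with a promoter, and the GAS-like letters in 7, against 9.55%. The motifs and the list were chosen with the results known, a match is a description of letters, and no binding was measured.

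Other members, apart from Cxcl9, had differences of the same sign. Tgtp1, an immunity GTPase whose reads can be shared with its near copy Tgtp2, had a difference of -3.24 (SE 1.13), Gbp6 -2.29 (SE 0.57) and Iigp1 -2.06 (SE 0.42) in 10 libraries. Iigp1 was at 1.08 to 1.91 CPM in the basal libraries, 555, 308 and 379 in control EAE and 125, 127 and 2.98 in cKO EAE, with no overlap between the EAE groups. Ifngr1, a chain of the interferon gamma receptor, had -0.78 (SE 0.24). Cxcl10, a T cell attractant, was at 206, 156 and 256 CPM in control EAE and 88.7, 89.6 and 0.547 in cKO EAE, with a difference of -1.67 (SE 0.57, adjusted p = 0.159, edgeR). Cxcl9 had 0 counts in cKO basal, and its fitted difference was positive. Against 3 counts over that group it was at least 354-fold higher in cKO EAE in 10 libraries, beside 2980-fold in control mice. The first value is a lower bound, so the direction of the Cxcl9 difference is not settled.

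All 15 genes of MHC class I and peptide loading had the lower response in cKO mice in both sets of libraries, 12 of 15 at an unadjusted p below 0.05 in 10 libraries and 8 of 15 in 12, with median differences of -1.16 and -2.21. Beside these counts, and those of the lists below, stand the shares of all genes at that p: 9.94% lower and 8.2% higher in 10 libraries, and 5.15% and 3.97% in 12. Among all genes at least 2-fold up in EAE, 86.7% had the smaller response in cKO mice in 10 libraries, with a median difference of -0.84. In 12 libraries the values were 86.6% and -1.06. An immune list with a median near these does not stand apart from genes induced in EAE as a whole. Tap1, the transporter that loads peptides, was at 2.82 to 5.31 CPM in the basal libraries, 312, 189 and 229 in control EAE and 87.6, 110 and 6.32 in cKO EAE. The EAE groups did not overlap. Its difference was -1.75 (SE 0.34, adjusted p = 0.0943, edgeR) in 10 libraries and -2.06 (SE 1.02) in 12. H2-Q7, a class I heavy chain of a multigene family whose reads may be shared, had -2.01 (SE 0.44) and -2.25 (SE 1.16), and Tapbp, the loading chaperone tapasin, -1.15 (SE 0.27) and -2.29 (SE 0.76). Erap1, which trims peptides for class I, was among the 10 lowest p of the lower genes with a group mean of at least 1 CPM in 10 libraries. It stood at 11.7 to 14.9 CPM in the basal libraries, 103, 76.5 and 88.9 in control EAE and 40.9, 49.2 and 17.4 in cKO EAE, and its difference was -1.27 (SE 0.21).

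MHC class II, which presents antigen to helper T cells, gave larger and more variable differences. All 10 genes were lower in both sets, with medians of -1.54 in 10 libraries and -2.37 in 12, and 5 of 10 and 3 of 10 were below an unadjusted p of 0.05. Cd74, the invariant chain, was at 2736, 1128 and 888 CPM in control EAE and 340, 531 and 6.57 in cKO EAE. Control EAE 1 was more than 2-fold above the other control libraries, and the groups did not overlap. The difference was -2.20 (SE 0.73, adjusted p = 0.151, edgeR) in 10 libraries and -2.43 (SE 1.51) in 12. Ciita, the class II transactivator, was at 1.97 to 3.88 CPM in the basal libraries, 85.3, 36.0 and 33.9 in control EAE and 12.2, 16.5 and 2.61 in cKO EAE. The cKO EAE libraries lay below the control EAE libraries, and the difference was -2.18 (SE 0.59) and -2.70 (SE 0.84) in 10 and 12 libraries. For H2-Aa the values were -3.02 (SE 0.96) and -3.06 (SE 1.71), and for H2-DMa, a peptide exchange chain, -1.43 (SE 0.36) and -1.73 (SE 0.78).

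**Figure D2:**
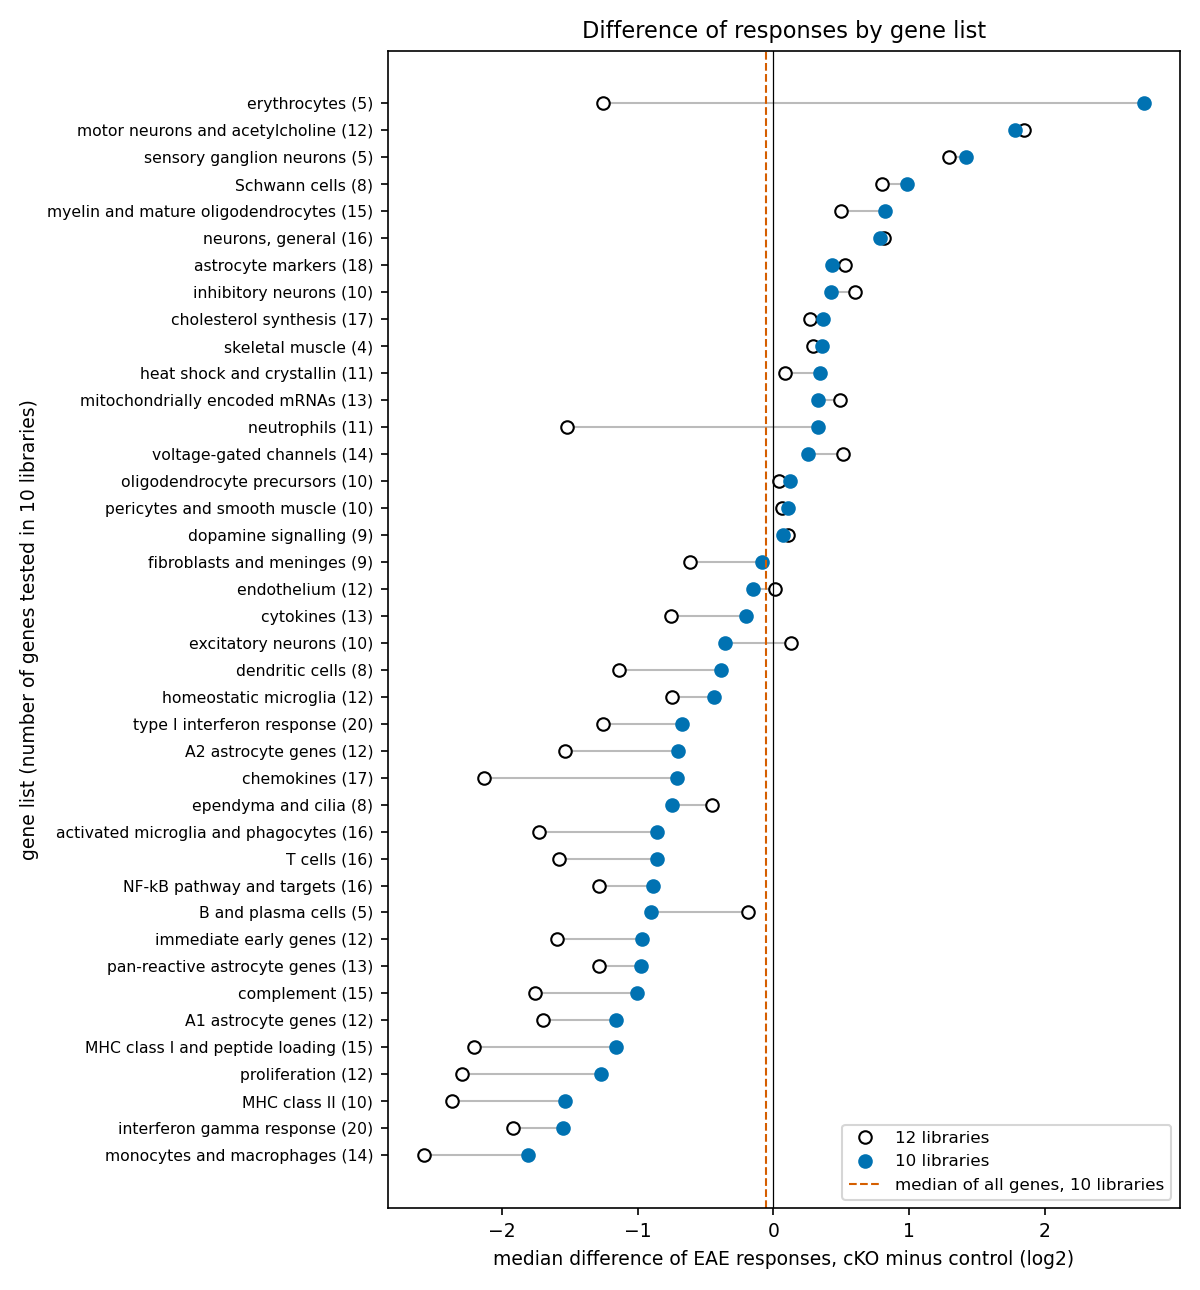
The median difference of EAE responses over each gene list (log2, cKO minus control) is plotted on the x axis, with open circles for 12 libraries and filled circles for 10. Immune lists other than the neutrophil list lie to the left of the dashed median of all genes. Motor neuron, general neuron, myelin and astrocyte marker lists lie to the right. The erythrocyte, neutrophil, excitatory neuron and endothelium lists change side between both sets of libraries.

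Type I interferon genes had medians of -0.67 in 10 libraries and -1.26 in 12. In 10 libraries 19 of 20 were lower and 9 at an unadjusted p below 0.05. Irf9, an interferon regulatory factor, was at 14 to 22.6 CPM in the basal libraries, 86.8, 73.8 and 91.5 in control EAE and 50.6, 59.7 and 12 in cKO EAE, with a difference of -0.81 (SE 0.19). Oasl2, an antiviral 2′-5′ oligoadenylate synthase-like gene, had -1.26 (SE 0.31). Without cKO EAE 3 the 12-library median moved to -0.78, and without cKO basal 1 the 10-library median to -0.38.

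Genes of incoming myeloid cells had the lowest list median. In 10 libraries 13 of 14 monocyte and macrophage genes were lower in cKO mice, 9 of 14 at an unadjusted p below 0.05, with a median of -1.81; with 12 libraries all 14 were lower, the median was -2.58 and 2 of 14 were below 0.05. Their summed level was 49.5 to 80.6 CPM in the basal libraries, 3883 to 6834 in control EAE and 128 to 2028 in cKO EAE. Lyz2, a lysozyme of myeloid cells, was at 4.05 to 11.5 CPM in the basal libraries, 3378, 1660 and 1111 in control EAE and 360, 663 and 16.9 in cKO EAE. The EAE groups did not overlap, and the difference was -1.77 (SE 0.70, adjusted p = 0.21, edgeR) in 10 libraries, -1.05 without cKO basal 1, and -2.38 (SE 1.29) in 12. Fn1, fibronectin, was at 1853, 1836 and 1713 CPM in control EAE and 377, 945 and 90.3 in cKO EAE, with a difference of -1.75 (SE 0.49). Arg1, the arginase of alternatively activated macrophages, was at 388, 286 and 318 CPM against 46.1, 94.3 and 0, with a difference of -2.65 (SE 0.93), or -0.93 without cKO basal 3. For Cd14, a coreceptor of lipopolysaccharide, it was -0.79 (SE 0.25).

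Like Erap1, Wfdc17, Iqgap1, Ccl9, Slc16a3 and Zc3hav1 were among the 10 lowest p of the lower genes in 10 libraries. Iqgap1 (chromosome 7, 80711583 to 80825974), a scaffold of the actin cytoskeleton, was at 24.0 to 32.8 CPM in the basal libraries. In EAE it was at 235, 210 and 241 CPM in control and 87.5, 119 and 40.7 in cKO mice, with no overlap. Its difference was -1.43 (SE 0.21, unadjusted p = 1.9e-05, adjusted p = 0.0911, edgeR) in 10 libraries and -1.62 (SE 0.44) in 12. Ccl9, a chemokine of myeloid cells, was at 1.02 to 4.28 CPM in the basal libraries, 72.5, 67.4 and 60.0 in control EAE and 17.5, 25.5 and 0.851 in cKO EAE. Its difference was -2.27 (SE 0.35) and -3.31 (SE 1.17) in 10 and 12 libraries. Slc16a3, the lactate exporter of glycolytic cells, stood at 66.0, 48.5 and 53.2 CPM in control EAE against 16.0, 17.7 and 1.03 in cKO EAE, with -1.87 (SE 0.30) and -2.69 (SE 1.02). Zc3hav1, an antiviral zinc finger protein, had -1.48 (SE 0.25) and -1.57 (SE 0.66). Wfdc17 had 0 counts in all control basal libraries, 22.4, 20.2 and 20.4 CPM in control EAE, 0.179 to 0.407 in cKO basal and 6.04, 6.23 and 1.22 in cKO EAE. With the control basal group set to 3 counts in all, it was at least 364-fold higher in EAE in control mice. In cKO mice it was 20.8-fold higher in 10 libraries, so the difference was -4.13 or lower.

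T cell genes were low in number of counts and gave wider errors. In 10 libraries 12 of 16 were lower in cKO mice, 3 at an unadjusted p below 0.05, with a median of -0.86, or -1.71 with groups at 0 counts set to 3 counts. The signs are fitted ones, and 5 of the 16 genes had a group at 0 counts. With 12 libraries the medians were -1.58 and -2.0, and 2 of 16 were below 0.05. The summed level of the 16 genes was 6.17 to 8.37 CPM in the basal libraries, 164 to 186 in control EAE and 49.9, 78.2 and 7.54 in cKO EAE. Zap70, which signals downstream of the T cell receptor, was at 1.18 to 1.97 CPM in the basal libraries, 12.1, 11.1 and 12.9 in control EAE and 3.45, 5.69 and 1.95 in cKO EAE, of which the last lay within the basal range. Its difference was -1.66 (SE 0.38, adjusted p = 0.0943, edgeR) in 10 libraries and -1.77 (SE 0.54) in 12. Trbc2, a receptor constant chain, had -2.35 (SE 0.72), which came to -0.13 without cKO basal 3, where it stood at 1.43 CPM against 0.174 in cKO basal 1. Cd3g, a chain of the receptor complex, had 0 counts in control basal and was at least 167-fold higher in control EAE with that group set to 3 counts. In cKO mice it was 42.4-fold higher in 10 libraries, a difference of -1.98 or lower. Cd80, a costimulatory ligand for T cells, and Gimap5 and Rasgrp1, genes of lymphocyte survival and signalling, were among the 10 lowest p of the lower genes with a group mean of at least 1 CPM in 12 libraries, with differences of -2.10 (SE 0.49), -2.88 (SE 0.65) and -1.83 (SE 0.42).

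Chemokine genes had a lower response in cKO mice in 13 of 17 cases in 10 libraries and 14 of 17 in 12. Of the 17 fitted signs, 5 and 3 were of genes with a group at 0 counts. In 10 libraries 4 were lower at an unadjusted p below 0.05 and 1 higher, with a median of -0.71, which was -0.21 without cKO basal 3. With 12 libraries it was -2.13, and -1.27 without cKO basal 2. Ccl2, which draws monocytes into tissue, was at 43.0, 31.9 and 49.7 CPM in control EAE and 13.1, 20.9 and 0.365 in cKO EAE, and at most 0.179 in the basal libraries, with a difference of -1.88 (SE 1.22, adjusted p = 0.442, edgeR). Ccl6 had -1.43 (SE 0.44), or -0.77 without cKO basal 1. The higher gene, Ccl4, rested on 0 counts in cKO basal 1 and 3 (2.54 to 3.85 CPM in control EAE, 2.24, 2.46 and 0.182 in cKO EAE). Its fitted 3.86 in 10 libraries and -1.50 in 12 are therefore not sizes of effect.

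The cytokine list had 8 of 13 genes lower in 10 libraries and 9 of 13 in 12. These counts are of fitted signs and include 5 genes with a group at 0 counts in each set, which have no fitted size. Its median was -0.20 in 10 libraries, or -1.59 with groups at 0 counts set to 3 counts, and 3 of 13 genes were lower at an unadjusted p below 0.05. Tnf had 0 counts in cKO basal and in all but 1 control basal library, 17.4, 12.2 and 10.2 CPM in control EAE and 2.88, 4.79 and 0 in cKO EAE. Its EAE levels did not overlap, but the fitted differences of 0.84 (SE 1.17) and 0.25 (SE 0.61) in 10 and 12 libraries depend on the basal zeros. Il6 was at 0.808, 1.89 and 6.30 CPM in control EAE and 0.632, 0.959 and 0 in cKO EAE, with overlap and with 0 counts in cKO basal. The fitted difference was 1.60 (SE 2.42). Il1b, a product of activated myeloid cells, was at 0.0553 to 1.09 CPM in the basal libraries, 61.1, 62.8 and 100 in control EAE and 21.9, 26.8 and 0.182 in cKO EAE, and its difference was -2.98 (SE 0.93) in 10 libraries and -4.66 (SE 2.00) in 12.

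NF-kB, the transcription factor downstream of these receptors, had 16 of 16 genes of its list lower in both sets, 9 and 7 of them at an unadjusted p below 0.05 in 10 and 12 libraries, with medians of -0.89 and -1.28. Tnfaip3, its feedback inhibitor A20, was at 2.99 to 5.37 CPM in the basal libraries other than cKO basal 2, which had 0. In EAE it stood at 66.9, 47.4 and 48.6 CPM in control and 17.1, 22.2 and 5.53 in cKO mice. The EAE groups did not overlap, and the difference was -1.68 (SE 0.35, adjusted p = 0.0943, edgeR) in 10 libraries and -1.51 (SE 1.19) in 12. Tnfaip2 had -1.92 (SE 0.41) and -2.94 (SE 0.93).

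Complement genes, which opsonize debris and are made by microglia, macrophages and reactive astrocytes, were lower in 15 of 15 cases in 10 libraries, 5 of them at an unadjusted p below 0.05, with medians of -1.01 in 10 libraries and -1.76 in 12 (-1.14 there without cKO EAE 3). C3 was at 1639, 1348 and 971 CPM in control EAE and 356, 624 and 34.2 in cKO EAE, with a difference of -1.33 (SE 0.43), or -0.68 without cKO basal 1. Serping1, the C1 inhibitor, was at 4.37 to 7.39 CPM in the basal libraries, 243, 175 and 176 in control EAE and 74.6, 87.0 and 13.3 in cKO EAE. Its libraries did not overlap between the EAE groups, and the difference was -1.65 (SE 0.29, adjusted p = 0.0911, edgeR) and -1.95 (SE 0.74). Cfp, properdin, had -1.31 (SE 0.30) and -1.96 (SE 0.54).

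Activated microglia and phagocyte genes were lower in 16 of 16 cases in both sets, with medians of -0.86 and -1.73 in 10 and 12 libraries, and 7 and 4 below an unadjusted p of 0.05. The 10-library median ran from -1.42 without cKO EAE 2 to -0.47 without cKO EAE 1. Clec7a, a receptor of fungal glucans on activated microglia, was at 212, 228 and 288 CPM in control EAE and 61.4, 116 and 1.40 in cKO EAE, with -2.28 (SE 0.65), and Cd68, a lysosomal protein, had -1.44 (SE 0.42). Homeostatic microglia genes were lower in 11 of 12 cases in 10 libraries and 12 of 12 in 12, with 2 and 0 below 0.05. Their median was -0.44 in 10 libraries, from -1.04 without cKO EAE 2 to -0.03 without cKO EAE 1, and -0.75 in 12. Whether the activated and homeostatic lists differed was not tested. Csf1r, the receptor of the survival factor CSF1, was at 1100, 816 and 825 CPM in control EAE and 337, 651 and 84.7 in cKO EAE, with -0.78 (SE 0.33). Proliferation genes were lower in 12 of 12 cases in both sets, with medians of -1.27 and -2.30, and Mki67 was at 71.2, 74.1 and 86.7 CPM in control EAE and 28.5, 41.9 and 2.67 in cKO EAE, with -1.84 (SE 0.50) in 10 libraries.

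**Figure D3:**
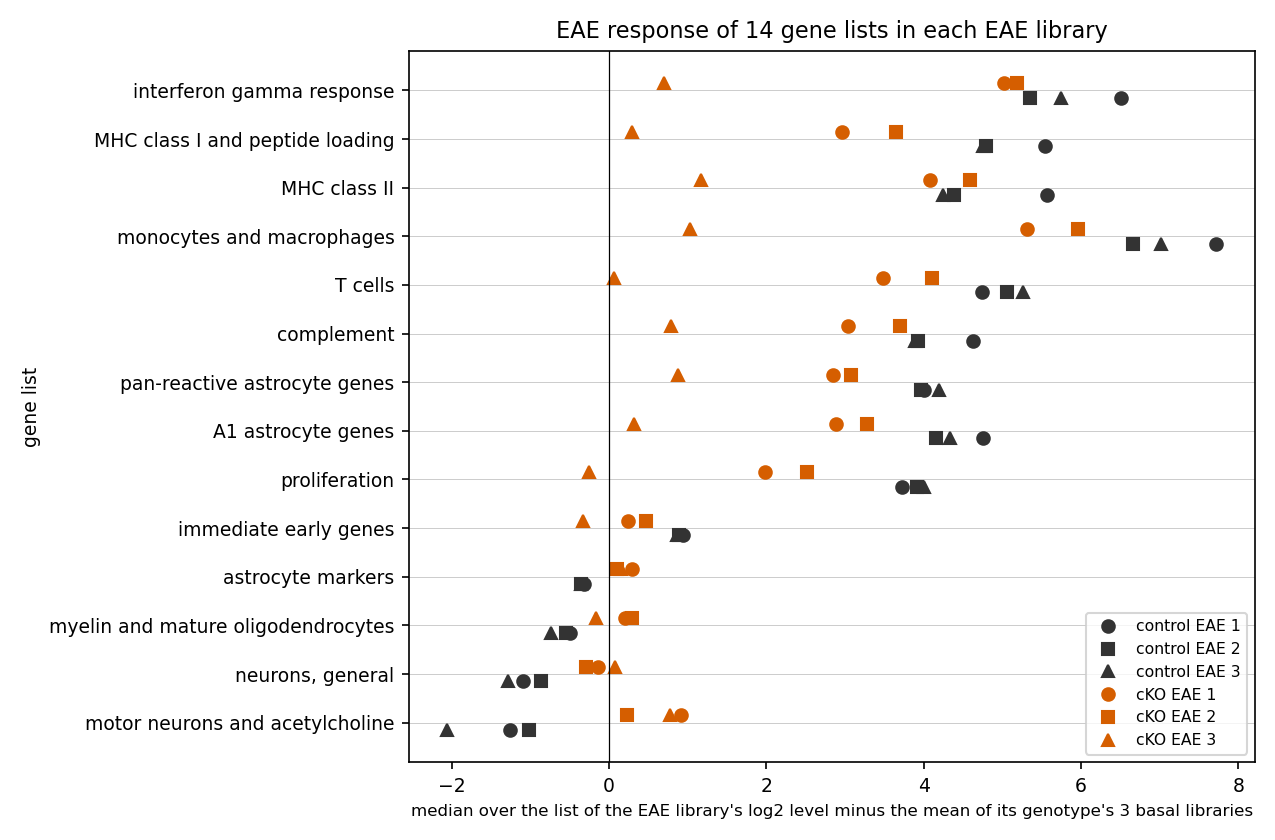
For 14 gene lists (y axis), each EAE library's median response over the list is plotted on the x axis as its log2 level minus the mean of the 3 basal libraries of its genotype. Control EAE libraries are dark and cKO EAE libraries orange, with circles, squares and triangles for replicates 1, 2 and 3. In immune lists the cKO EAE 3 triangle lies below every other EAE library, from 0.063 in T cells to 1.17 in MHC class II. The cKO EAE 1 and 2 libraries lie below the control libraries in the monocyte, T cell, complement and reactive astrocyte lists but overlap them in MHC class II. With cKO basal 2 left out of the basal mean (not drawn), their MHC class II medians were 3.57 and 4.08, below the 4.25 to 5.57 of control EAE.

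Gfap, the intermediate filament that defines reactive astrocytes, was at 1421, 1504 and 1366 CPM in the control basal libraries, with 1445, 1080 and 957 in cKO basal. In EAE it was at 4394, 4364 and 5769 CPM in control and 3743, 4545 and 1026 in cKO mice. The genotypes overlapped in EAE, and cKO EAE 3 was at the basal level. The difference was 0.01 (SE 0.29, adjusted p = 0.999, edgeR) in 10 libraries and -0.34 (SE 0.61) in 12, and its sign turned with single libraries (-0.19 without cKO basal 3, 0.40 without cKO basal 1). Of the pan-reactive astrocyte list, 11 of 13 genes had a lower response in 10 libraries and 13 of 13 in 12. In 10 libraries 8 were lower at an unadjusted p below 0.05 with a list median of -0.98, and in 12 it was 5 with -1.29. Without cKO EAE 2 the 12-library median of the list was -2.02.

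Lcn2, a secreted iron-siderophore carrier of reactive astrocytes and myeloid cells, was at 0.332 to 3.82 CPM in the basal libraries, 624, 760 and 740 in control EAE and 103, 216 and 18.2 in cKO EAE. The groups did not overlap, and the difference was -2.05 (SE 0.75, adjusted p = 0.184, edgeR) in 10 libraries and -3.03 (SE 1.18) in 12. S1pr3, a sphingosine-1-phosphate receptor, was at 56.7, 62.1 and 75.3 CPM in control EAE and 19.2, 31.9 and 6.87 in cKO EAE, with -1.63 (SE 0.31) and -2.43 (SE 0.66). Cp, ceruloplasmin, had -1.10 (SE 0.24) and -1.15 (SE 0.69). In the A1 list 8 of 12 genes were lower and 1, Fbln5, higher at an unadjusted p below 0.05 in 10 libraries, with a median of -1.16. The 8 were C3, H2-T23, Serping1, H2-D1, Ggta1, Iigp1, Gbp2 and Psmb8. Ggta1, a galactosyltransferase, had -1.25 (SE 0.25), and Gbp2 was at 709, 341 and 468 CPM in control EAE and 146, 170 and 3.59 in cKO EAE, with -1.79 (SE 0.48). Several of these genes also stand in the interferon gamma, MHC class I and complement lists, and immune cells express them too. In the A2 list 9 of 12 had a negative difference in 10 libraries, with a median of -0.71 (-0.44 without control EAE 3). At an unadjusted p below 0.05, 2 were lower.

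Astrocyte markers had a higher response in cKO mice in 13 of 18 cases in both sets of libraries. Of the 18, 7 were higher in cKO mice at an unadjusted p below 0.05 in 10 libraries and 1, the glutamate transporter Slc1a3, lower, with a median of 0.43. With 12 libraries 5 of 18 were higher and 0 lower at that p, with a median of 0.53. The list's medians by library were -0.32 to -0.36 in control EAE and 0.10 to 0.13 in cKO EAE in 10 libraries. Ntsr2, a neurotensin receptor of astrocytes, was at 277, 245 and 228 CPM in basal control libraries and 228, 89.6 and 227 in basal cKO libraries. The EAE libraries had 78.9, 106 and 78.0 CPM in control and 214, 174 and 226 in cKO mice. The cKO EAE libraries lay above the control EAE libraries and near the basal level. The difference was 1.26 (SE 0.23, adjusted p = 0.0911, edgeR) and 1.69 (SE 0.44) in 10 and 12 libraries. Fgfr3, a growth factor receptor of astrocytes, had 0.83 (SE 0.20) and 1.21 (SE 0.37), and Cldn10, a claudin, 1.13 (SE 0.27) and 0.90 (SE 0.37). S100b, a calcium-binding protein of astrocytes and oligodendrocytes, had 1.20 (SE 0.30) in 10 libraries and -0.49 (SE 0.91) in 12, where it stood at 3034 CPM in cKO basal 2.

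Among genes with a group mean of at least 1 CPM and a higher response in cKO mice, Etnppl had the smallest p in 10 libraries and Kcnab1 in 12. Etnppl (chromosome 3, 130617448 to 130637521), an enzyme that breaks down phosphoethanolamine, was at 61.7, 69.4 and 68.8 CPM in the control basal libraries, with 56.8, 70.8 and 63.3 in cKO basal. In EAE it was at 27.4, 31.8 and 29.0 CPM in control and 60.0, 59.4 and 57.1 in cKO mice. All 3 cKO EAE libraries, cKO EAE 3 included, lay within the range of the cKO basal libraries, while all 3 control EAE libraries were below every basal library. The difference was 1.15 (SE 0.17, unadjusted p = 2.1e-05, adjusted p = 0.0911, edgeR) in 10 libraries and 1.07 (SE 0.21) in 12. Kcnab1 (chromosome 3, 65109384 to 65378223), a beta subunit of voltage-gated potassium channels, was at 156, 142 and 135 CPM in basal control libraries and 146, 117 and 131 in basal cKO libraries. At day 17 of EAE the level was 48.2, 62.6 and 45.6 CPM in control and 130, 104 and 149 in cKO mice. Its difference was 1.20 (SE 0.22) in 10 libraries and 1.42 (SE 0.27) in 12. Grin2c, an NMDA receptor subunit, was at 28.1 to 39.0 CPM in the basal libraries, 13.7, 11.5 and 11 in control EAE and 33.6, 24.4 and 36.2 in cKO EAE. The difference was 1.40 (SE 0.27) and 1.52 (SE 0.30).

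Hsd11b1, Rcan2, Sgpp2 and Scd3 were among the 10 smallest p of the higher genes in 12 libraries. Hsd11b1, which regenerates active glucocorticoid, was at 37.6, 33.2 and 33.9 CPM in basal control libraries and 24.7, 21.6 and 27.6 in basal cKO libraries. In EAE, control libraries held 10.7, 12.3 and 16.4 CPM and cKO libraries 30.5, 22 and 32.2. Its cKO basal libraries lay below the control basal ones, so that the difference of 1.39 (SE 0.27) in 10 libraries and 1.60 (SE 0.31) in 12 drew on both states. Rcan2, an inhibitor of calcineurin, was at 358 to 387 CPM in the basal libraries, 163, 192 and 144 in control EAE and 331, 280 and 348 in cKO EAE, with 0.92 (SE 0.20) and 1.02 (SE 0.23). Sgpp2, a sphingosine-1-phosphate phosphatase, had 1.05 (SE 0.21) and 1.27 (SE 0.27), and Scd3, a stearoyl-CoA desaturase, 1.62 (SE 0.37) and 1.83 (SE 0.40). Efhd1 (1.27 and 1.41), Patj (0.92 and 1.00), Nell1 (1.20 and 1.46), Nkain2 (1.07 and 0.93) and Klhl4 (1.18 and 0.94) had the same sign in 10 and 12 libraries. Pls1 and Itgb4 did too, with 1.06 (SE 0.19) and 1.26 (SE 0.23) in 10 libraries, but their cKO basal 2 levels of 7.64 and 5.91 CPM lay far below the other basal libraries (32.2 to 40.9 and 43.7 to 65.0). Arl4d, a small GTPase, had 2.17 (SE 0.40) and 1.31 (SE 0.63). Crtac1 and Fa2h had 1.11 (SE 0.20) and 1.04 (SE 0.20) in 10 libraries and -0.06 (SE 0.72) and -0.01 (SE 0.63) in 12, where cKO basal 2 stood at 397 and 594 CPM.

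**Figure D4:**
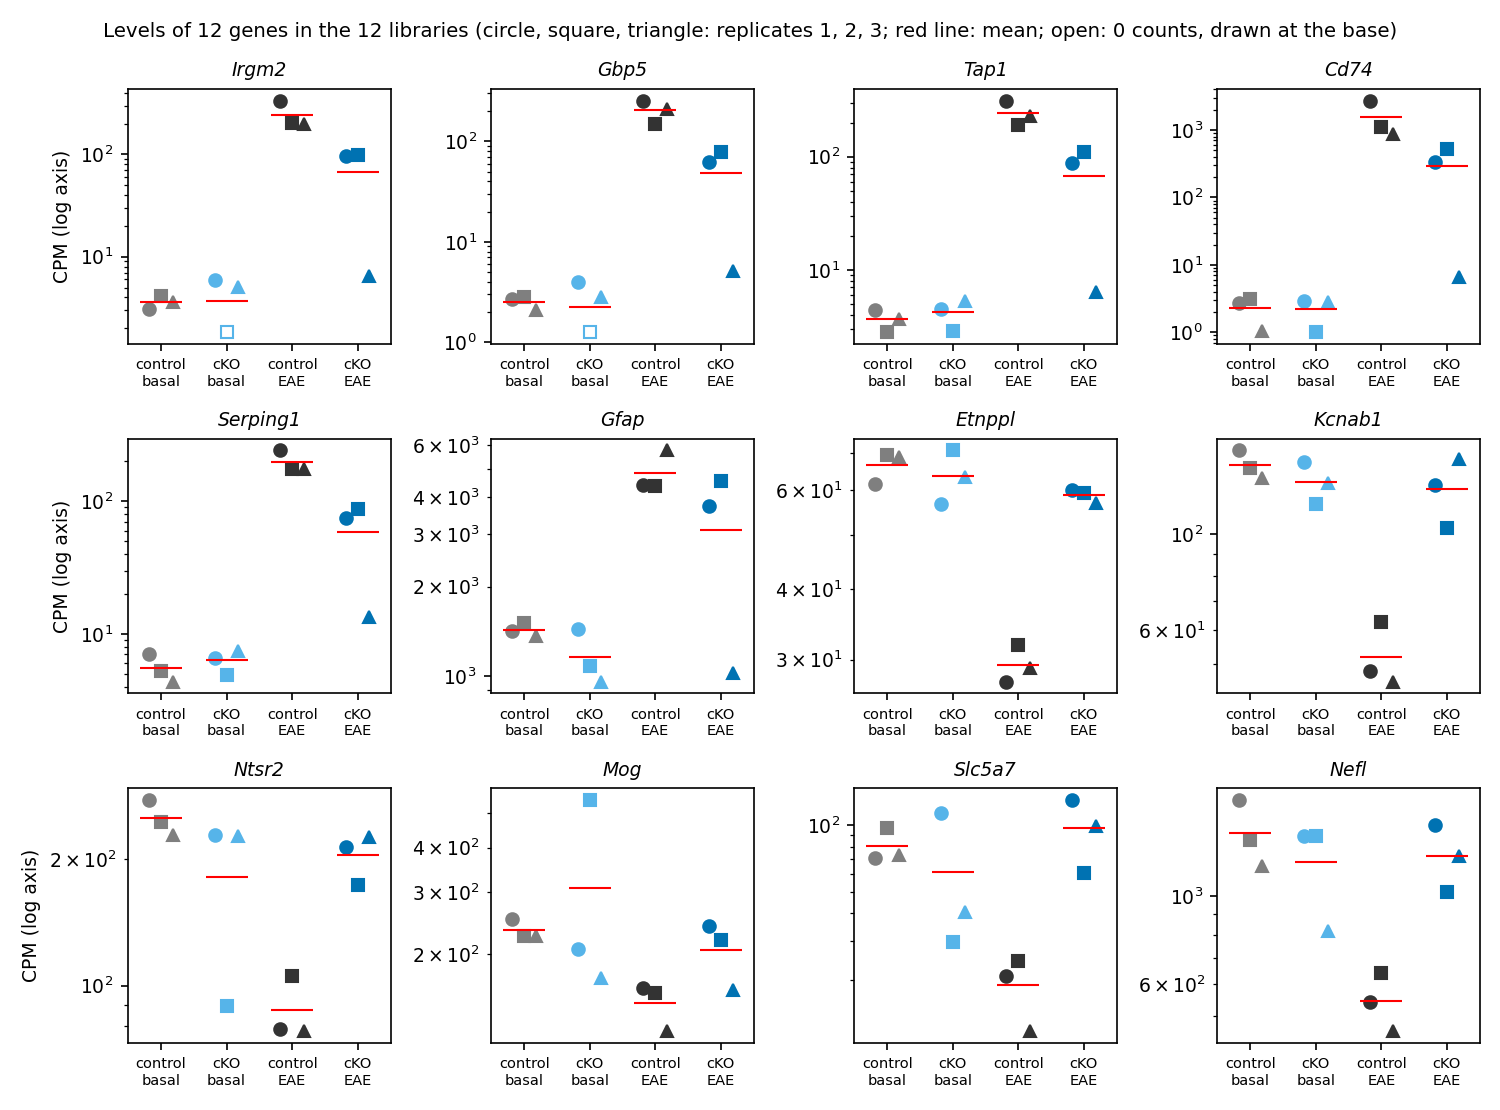
CPM on a log axis is plotted for 12 genes in the 4 groups, with 1 point per library, red lines at group means and open symbols for libraries with 0 counts. The immune genes of the upper rows lie lower in cKO EAE than in control EAE, with cKO EAE 3 near the basal level, and Etnppl, Kcnab1 and Ntsr2 lie higher in cKO EAE, at 57.1 to 60.0, 104 to 149 and 174 to 226 CPM.

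Myelin genes had a higher response in cKO mice in 10 libraries. All 15 had a positive difference and 14 were at an unadjusted p below 0.05, beside 8.2% of all genes, with a median of 0.82 that stayed between 0.76 and 1.04 over all alternatives. DESeq2's Wald test called 11 and limma voom 10 of them, beside 454 and 485 genes called higher in all. In 12 libraries they called 0 and 13, beside 59 and 1632. By edgeR with 12 libraries 13 of 15 were positive and 5 below 0.05, beside 3.97% of all genes, with a median of 0.50. Mog, a myelin surface glycoprotein used as an EAE antigen, was at 251, 226 and 226 CPM in basal control libraries and 207, 546 and 171 in basal cKO libraries. With EAE it stood at 160, 155 and 122 CPM in control mice and 241, 219 and 159 in cKO mice. The cKO EAE 3 library lay among the control EAE libraries. The difference was 0.95 (SE 0.21, adjusted p = 0.0943, edgeR) in 10 libraries and 0.10 (SE 0.53) in 12.

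Ugt8a, the enzyme of galactocerebroside synthesis, was at 237 to 251 CPM in basal control libraries and 250, 96.2 and 206 in basal cKO libraries. The EAE libraries had 167, 164 and 146 CPM in control and 291, 242 and 209 in cKO mice. The EAE groups did not overlap, and the differences were 0.82 (SE 0.19) in 10 libraries and 1.04 (SE 0.41) in 12. Mal, a proteolipid, had 0.89 (SE 0.21) and 0.83 (SE 0.30), Aspa, which supplies acetate for lipid synthesis, 1.00 (SE 0.25) and 0.46 (SE 0.44), and Mbp, myelin basic protein, 1.06 (SE 0.29) and 1.18 (SE 0.38). Cholesterol synthesis, which feeds myelin, had 16 of 17 genes positive in 10 libraries, 3 of them at an unadjusted p below 0.05. The medians were 0.37 in 10 libraries and 0.27 in 12, and Hmgcs1 had 0.71 (SE 0.26). Oligodendrocyte precursor genes had medians of 0.12 and 0.04.

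General neuronal genes had a higher response in cKO mice in 15 of 16 cases in 10 libraries and 13 of 16 in 12. Of these genes, 11 were higher at an unadjusted p below 0.05 in 10 libraries and 8 in 12, and 0 were lower at that p. The medians were 0.78 and 0.81. Nefl, the light neurofilament chain, was at 1750, 1384 and 1189 CPM in basal control libraries and 1414, 1419 and 817 in basal cKO libraries. At day 17 of EAE the level was 541, 639 and 457 CPM in control and 1511, 1025 and 1259 in cKO mice. All cKO EAE libraries lay above the control EAE libraries, and cKO basal 3 lay below the other basal libraries. The difference was 1.56 (SE 0.36, adjusted p = 0.0943, edgeR) in 10 libraries and 1.46 (SE 0.38) in 12. Nefh, the heavy chain, had 1.72 (SE 0.43) and 1.52 (SE 0.45), and Snap25, a protein of synaptic vesicle fusion, 1.00 (SE 0.25) and 0.82 (SE 0.39). Of 10 inhibitory neuron genes, 7 had a positive difference in 10 libraries, with a median of 0.43. At an unadjusted p below 0.05, 4 were higher. Slc32a1, the vesicular transporter of GABA and glycine, was at 200 to 246 CPM in the basal libraries, 89.1, 109 and 90.6 in control EAE and 169, 155 and 197 in cKO EAE, with 0.84 (SE 0.18) and 0.86 (SE 0.23). Slc6a5, the glycine transporter, had 0.92 (SE 0.28) and 1.44 (SE 0.67). Excitatory neuron genes had a median of -0.36 in 10 libraries and 0.13 in 12. Camk2a, a synaptic kinase of excitatory neurons, had -1.17 (SE 0.55) in 10 libraries, -2.33 without cKO EAE 2 and -0.49 without cKO EAE 1. Over all its alternatives the value ran from -2.33 to -0.30.

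Motor neuron and acetylcholine genes gave the largest positive difference among neuron lists, 1.78 in 10 libraries and 1.85 in 12. All 12 genes were positive in both sets, beside 8661 of 18956 genes tested in 10 libraries and 8723 of 18601 in 12. Of the list, 10 and 8 were at an unadjusted p below 0.05. Slc5a7 (chromosome 17, 54273590 to 54299034), the choline transporter of cholinergic terminals, was at 71.3, 96.9 and 73.3 CPM in basal control libraries and 113, 29.6 and 40.7 in basal cKO libraries. In EAE, control libraries held 20.9, 24.4 and 11.8 CPM and cKO libraries 130, 60.9 and 98.7. The EAE groups did not overlap, and the cKO basal libraries spread more widely than any other group. The difference was 2.37 (SE 0.58, adjusted p = 0.0969, edgeR) and 2.73 (SE 0.69). Slc18a3, the vesicular acetylcholine transporter, was at 70.1, 74.4 and 57.3 CPM in basal control libraries and 82.2, 12.1 and 20.6 in basal cKO libraries. With EAE it stood at 25.6, 26.1 and 13.6 CPM in control mice and 111, 56.7 and 68.9 in cKO mice. Its difference was 2.31 (SE 0.65) in 10 libraries, and 3.71 without cKO basal 1. Chat, which makes acetylcholine, had 1.89 (SE 0.67), 3.05 without cKO basal 1 and 1.17 without cKO EAE 1. Isl2, a transcription factor of motor neurons, had 2.81 (SE 0.70). The 10-library list median was 2.97 without cKO basal 1 and 1.24 without cKO basal 3, each of which leaves 1 cKO basal library.

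Summed markers of Schwann cells and spinal roots, 4 genes, were at 72.6 to 115 CPM in the basal groups, 102 to 121 in control EAE and 126 to 553 in cKO EAE. Prx, a protein of peripheral myelin, was at 43.9, 2.22 and 22.1 CPM in cKO EAE and 0 to 2.51 elsewhere, with a difference of 2.68 (SE 1.42), or -0.66 without cKO EAE 1. Pmp22, another peripheral myelin protein, had 1.26 (SE 0.39), or 0.56 without cKO EAE 1. The Schwann cell list had a median of 0.99 in 10 libraries and -0.45 without cKO EAE 1, and the sensory ganglion neuron list, with 5 of 10 genes tested, a median of 1.42. The part of root tissue in the neuronal differences was not tested.

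Immediate early genes, which respond to activity and cytokines, had 7 of 12 genes lower at an unadjusted p below 0.05 in both sets, with medians of -0.97 in 10 libraries and -1.59 in 12. Egr1 was at 30.3, 24.0 and 24.8 CPM in basal control libraries and 32.8, 70.5 and 56.8 in basal cKO libraries. The EAE libraries had 41.7, 43.0 and 47.9 CPM in control and 22, 33.3 and 25.7 in cKO mice. All control EAE libraries lay above the control basal ones, whereas cKO EAE 1 and 3 lay below every cKO basal library. The difference was -1.46 (SE 0.33, adjusted p = 0.0943, edgeR) and -1.73 (SE 0.38). Egr3 had -2.16 (SE 0.55), or -1.31 without cKO basal 3. Fosl2, an AP-1 subunit, was at 7.57 to 20.0 CPM in the basal libraries, 58.6, 48.2 and 66.1 in control EAE and 28.4, 27.7 and 7.66 in cKO EAE, with -1.35 (SE 0.22) and -2.18 (SE 0.64). Junb had -1.07 (SE 0.28).

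Nrp1, Wfdc17 and Apaf1 had the 3 smallest p of the lower genes with a group mean of at least 1 CPM in 12 libraries. Nrp1, a receptor of semaphorins and VEGF, was at 16.0, 21.9 and 21.3 CPM in basal control libraries and 26.8, 42.3 and 30.2 in basal cKO libraries. At day 17 of EAE the level was 59.4, 54.3 and 51.7 CPM in control and 30.3, 36.0 and 24.4 in cKO mice. The cKO basal libraries lay above the control basal ones and the cKO EAE libraries below the control EAE ones. Its difference was -1.61 (SE 0.32, adjusted p = 0.547, edgeR) in 12 libraries and -1.28 (SE 0.22) in 10. Apaf1, the scaffold of the apoptosome, was at 9.47 to 16.7 CPM in the basal libraries, 43.8, 39.1 and 40.2 in control EAE and 18.4, 23.7 and 13.2 in cKO EAE, with -1.54 (SE 0.33) and -1.24 (SE 0.23). Sema4a, a semaphorin of immune cells, had -0.99 (SE 0.24) and -1.01 (SE 0.22), Neurl1b -1.94 (SE 0.48) and -1.57 (SE 0.39), and Zfp973 -3.48 (SE 0.76) and -3.46 (SE 0.75) at levels of at most 2.37 CPM.

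Endothelial genes had medians of -0.15 in 10 libraries and 0.01 in 12, with 0 and 1 of 12 below an unadjusted p of 0.05. Pericyte and smooth muscle genes had 0.11 and 0.06, with 0 of 10 in both, and Rgs5, a pericyte marker, had 0.15 (SE 0.18) and 0.67 (SE 0.61). Voltage-gated channels had 0.25 and 0.51. At an unadjusted p below 0.05, 2 of 14 were higher in both sets and 1 lower in 10 libraries. Ependymal genes were lower in 7 of 8 cases in 10 libraries and 6 of 8 in 12. Their medians were -0.75, or 0.01 without cKO EAE 2, and -0.45, or -0.09 without cKO basal 3, and Rarres2 had -1.09 (SE 0.38). Fibroblast and meningeal genes had -0.08 and -0.62. Within that list Ptgds, a prostaglandin D synthase of meninges and oligodendrocytes, was at 130, 101 and 58.0 CPM in control EAE and 400, 206 and 349 in cKO EAE, with 2.18 (SE 0.45) and 1.16 (SE 0.79). Heat shock genes had 0.34 and 0.09. Cryab, a small heat shock protein, was at 338, 158 and 183 CPM in basal control libraries and 121, 288 and 101 in basal cKO libraries. In EAE, control libraries held 135, 149 and 118 CPM and cKO libraries 121, 98.5 and 88.9. Its difference was 0.72 (SE 0.37) in 10 libraries, 0.36 without control basal 1, and 0.03 (SE 0.56) in 12.

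Like the excitatory neuron and endothelial lists, the erythrocyte and neutrophil lists had opposite signs in 12 and 10 libraries. Erythrocyte genes had a median of -1.26 in 12 libraries and 2.73 in 10. Hba-a1, an alpha globin gene with a near-identical copy, was at 28.0, 35.1 and 4.59 CPM in basal control libraries and 6.75, 427 and 5.43 in basal cKO libraries. With EAE it stood at 3.40, 3.31 and 5.66 CPM in control mice and 7.42, 7.61 and 18.5 in cKO mice. Control basal 1 and 2 and cKO basal 2 held the high values. Neutrophil genes had -1.53 in 12 libraries and 0.32 in 10, where the sign turned again without control basal 1 (-0.78), and Csf3r, a growth factor receptor of neutrophils and monocytes, had -1.22 (SE 0.42). B and plasma cell genes were near the detection limit, with 5 of 9 tested and 0 in 10 libraries below an unadjusted p of 0.05, and medians of -0.90 in 10 libraries and -0.19 in 12. Dendritic cell genes had a median of -0.39 in 10 libraries and -1.14 in 12. With groups at 0 counts set to 3 counts the medians were -0.82 and -1.26.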

How the data were processed

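RNA-seq of mouse spinal cord gave 12 libraries in 4 groups of 3. The authors deposited raw read counts per gene, made with HISAT2 2.0.5 and featureCounts 1.5.0-p3 on mm10 per the submitters' processing notes. Annotation release and strand setting are not stated in the labels or notes. All 54532 genes of the table entered filterByExpr (minimum count 10). TMM scaling and edgeR 4.0.16's quasi-likelihood test (R 4.3.3) gave the interaction, with Benjamini-Hochberg adjustment over all genes tested and a threshold of 0.05. SE is the size of the log2 difference divided by the square root of F. The same fit was made without cKO basal 2 and cKO EAE 3. DESeq2 1.42.0, limma 3.58.1 voom, no filter, other size factors, a replicate block, a gene length offset and leaving out each library were alternatives. The test was checked on simulated data.

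The labels do not state a pairing of samples by replicate number. Of 18 correlations of deviations between same-numbered samples, 4 were above 0.1 (range -0.458 to 0.371). The deviations are from means of 3 libraries, so these values cannot exclude a pairing.

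Named genes were Drd2, the 10 smallest p in each direction of each fit with a group mean of at least 1 CPM, up to 4 genes per list by p, and 11 set genes. Genes named outside that rule (Tgtp1, Gbp6, Ifngr1, Cxcl9, Cd8a, H2-D1, H2-T23, Psmb8, Mbp, Slc1a3, Fbln5 and the sex-linked genes) were chosen after their values were seen. Some members of the lists are not reported here by name. The lists and the comparison were chosen with earlier results of these data known. Promoters came from RefSeq, build GRCm38.p6, which is mm10.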

Additional observations from a re-analysis of the deposited data

How the results depend on the processing

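Counts of called genes depended on the method. With all 12 libraries, where edgeR called 0 genes with and without the filter on low counts, DESeq2 called 91 (59 higher and 32 lower in cKO mice, of 8806 genes with an adjusted p), and limma voom 2999 (1632 and 1367). With 10 libraries edgeR called 0, DESeq2 948 (454 and 494), limma voom 801 (485 and 316), edgeR without the filter 1421 (748 and 673), and edgeR with a gene length offset 1 (1 higher and 0 lower). Leaving out 1 library kept the 12-library count at 0 and gave 0 to 582 called genes in the 10-library set, 0 to 395 higher and 0 to 367 lower. At an unadjusted p below 0.05, limma voom gave 2910 higher and 3177 lower genes and DESeq2 1488 lower genes with 12 libraries, and edgeR without the filter gave 2380 higher genes with 10. Against a minimum 2-fold difference, 69 higher and 272 lower genes remained below 0.05 with 12 libraries, and 126 and 319 with 10. Without 1 library these counts ran from 448 to 1902 higher and 433 to 1770 lower with 12 libraries, and from 909 to 2449 higher and 889 to 2443 lower with 10. The cause of these shifts was not tested.

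Of 111 named genes, 100 had the same direction in every alternative. Among 2253 comparisons of a gene with an alternative, 24 were reversed and 312 were past the threshold. Drd2, at 0.10 with 12 libraries, was -0.52 with limma voom, -0.0899 with the length offset, -0.084 with the length offset and replicate block, -0.21 without cKO basal 2 and cKO EAE 3, and -0.32 to 0.43 without 1 library. With all 12 libraries in place of 10, these genes changed sign: Crtac1 (-0.0613), Fa2h (-0.0068), Gfap (-0.34), S100b (-0.49), Th (0.47), Hba-a1 (-1.26) and Ccl4 (-1.50). Limma voom gave -1.84 for Tnf and -0.51 for Il6. Without 1 library, Tnf ran from -1.76 to 1.44, Prx from -0.66 to 3.61 and Gfap from -0.19 to 0.40. The cause was not tested.

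By the labels, same-numbered samples shared only a number. With the replicate block edgeR again called 0 genes in both sets of libraries, and Gfap came to -0.025, or -0.022 with the length offset too. Robust dispersion estimates and DESeq2's size factors called 0 genes as well.

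With 3 libraries a group or fewer, differences near the median SE of 0.302 (10 libraries) or 0.574 (12) were not detectable. Genes with a group at 0 counts have no fitted size. Sex and state change together.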
